A study of Homo sapiens with 4 samples.

Results

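*FN1* encodes fibronectin, and 9 further genes encode cell-surface receptors that bind it: the integrin alpha subunits *ITGA5*, *ITGAV*, *ITGA3* and *ITGA4*, the integrin beta subunits *ITGB1*, *ITGB3*, *ITGB5* and *ITGB6*, and the proteoglycan co-receptor *SDC4*. These 10 genes were taken by symbol, 10 of the 16708 genes listed in at least 1 library. They were compared in BEAS2B, a virus-transformed line of human bronchial epithelial cells grown in medium with 10% fetal bovine serum and used at passages 15 to 18. The 2 sh-Ctrl libraries came from cells that express a retroviral shRNA against luciferase, and the 2 sh-QKI libraries from cells that express a retroviral shRNA against all isoforms of QKI, an RNA-binding protein of the STAR family that regulates splicing. In each group the libraries are numbered replicate 1 and replicate 2. Cells with only 1 QKI shRNA were sequenced. No source used here states that replicate libraries came from separate cultures, so the spread behind each p-value may be technical.

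Fibronectin is a secreted matrix glycoprotein that cells assemble into fibrils. Integrins are heterodimers of an alpha and a beta chain that join such fibrils to the actin cytoskeleton. The alpha-5 beta-1 integrin is the classical fibronectin receptor and binds its RGD site; integrins that hold alpha-v bind the same site in fibronectin and in other ligands, alpha-4 beta-1 binds the variable region, and alpha-3 beta-1 is chiefly a laminin receptor. Syndecan-4 binds the heparin-binding domain and acts with alpha-5 beta-1 in focal adhesions. The mRNA of *FN1* is alternatively spliced at 3 places, the EDB and EDA cassette exons, each of which encodes 1 extra type III repeat, and the variable region, which gives tissue-dependent forms of the protein.

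*FN1* lies on the minus strand of hg19 at chr2:216225163-216300796. The EDB exon (273 nt, chr2:216257654-216257926) is in 3 annotated coding transcripts and is skipped in 7, and the EDA exon (270 nt, chr2:216245534-216245803) is in 5 and is skipped in 6. Their sequences are shown because they are the exons by which the cellular forms of fibronectin differ from the plasma form. They are printed in lower case along the mRNA, with no part in capitals.
EDB: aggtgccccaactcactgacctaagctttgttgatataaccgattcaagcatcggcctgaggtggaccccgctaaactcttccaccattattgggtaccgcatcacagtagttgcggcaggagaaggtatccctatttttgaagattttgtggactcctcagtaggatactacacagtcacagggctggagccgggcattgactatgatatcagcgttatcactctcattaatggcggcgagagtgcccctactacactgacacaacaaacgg
EDA: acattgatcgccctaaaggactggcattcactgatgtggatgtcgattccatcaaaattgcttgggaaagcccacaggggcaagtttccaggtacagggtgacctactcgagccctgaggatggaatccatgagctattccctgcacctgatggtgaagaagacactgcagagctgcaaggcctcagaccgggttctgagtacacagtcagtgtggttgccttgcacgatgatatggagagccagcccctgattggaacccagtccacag

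The PCR primers that the study designed for *FN1* are shown because their positions tell which exon they read. The forward primer (chr2:216259329-216259348) and the reverse primer (chr2:216256518-216256537) lie in the exons on either side of EDB, and in the annotated coding transcripts they span a product of 391 nt with EDB (3 transcripts) or 118 nt without it (7 transcripts).
FN1-For: ttttgataacctgagtcccg
FN1-Rev: gtcagtgggaggaggaacag

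The sequence that QKI prefers is ACTAAC or ACTAAT in DNA letters, and RBFOX proteins, another family of splicing factors, prefer TGCATG. These exact words were searched on the transcript strand of the introns beside EDB, EDA and an exon of the variable region. No ACTAAC or ACTAAT lay within 200 nt of EDB, EDA or the 267-nt exon of the variable region (chr2:216236832-216237098). Over 189562 internal exons of protein-coding transcripts, 6.68% of the windows of 200 nt upstream and 5.73% of those downstream held one. Forms of an exon with different ends were counted apart there. The windows were not cut where an intron ended, so some reach into a neighbouring exon. The nearest QKI words began 640 nt upstream of EDB, 316 nt upstream of EDA and 221 nt upstream of the 267-nt variable exon. A 192-nt form of the variable exon is also annotated, with its nearest QKI word 296 nt upstream. Of upstream windows of 1000 nt, 24.4% hold at least 1 such word. TGCATG began 71 nt upstream of EDA, and 6 copies lay in the intron after EDB, 4 of them wholly within its first 1000 nt. At least 1 copy in such a window downstream was found for 25.3% of exons, and at least 4 copies for 0.187%. The limit of 4 is the count seen after EDB itself, so the last share is no independent measure of rarity. A match to these letters is a description and not a binding site, and the windows without one say only that the letters are not there. The 30-nt stretches below hold the 3 nearest QKI words and the TGCATG copies nearest to EDA and EDB, with the word in capitals.
Upstream of EDB, chr2:216258549-216258578: tagaatgcttttACTAACgctaattacatg
Upstream of EDA, chr2:216246102-216246131: caggtctatgagACTAACatcacattgtaa
Upstream of the variable exon, chr2:216237302-216237331: tgataaattcatACTAACacttttttcttt
Upstream of EDA, chr2:216245857-216245886: gcaaaactgcttTGCATGttataaaaatgc
Downstream of EDB, chr2:216257595-216257624: catagatggtgtTGCATGctgccaccagtt
Downstream of EDB, chr2:216257034-216257063: ggttctctgctgTGCATGggaaaagaaaca
Downstream of EDB, chr2:216257001-216257030: tgagaaccaattTGCATGaacatgttcact
Downstream of EDB, chr2:216256897-216256926: tttttgtctgtgTGCATGtatttctttgta

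**Figure D1:**
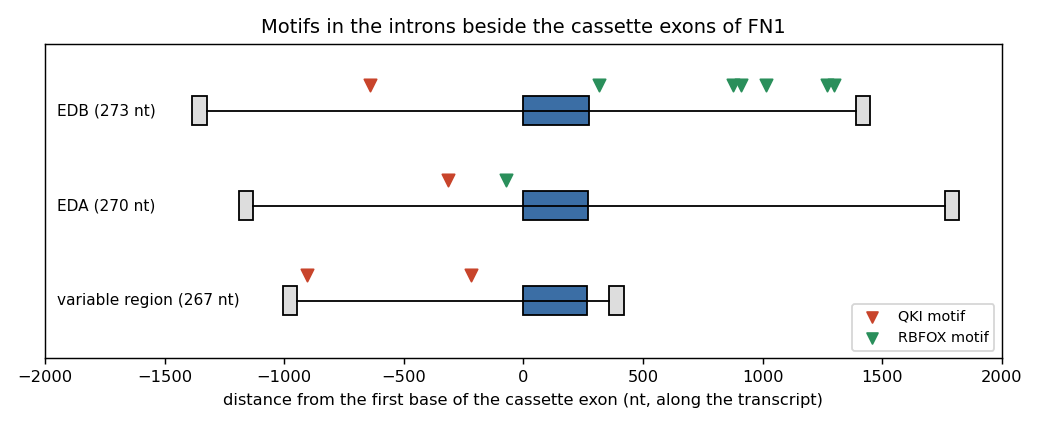
Introns beside the 3 cassette exons of *FN1*, drawn to scale along the transcript (x axis, nt from the first base of the exon); blue boxes are the cassette exons, grey boxes only mark where the neighbouring exons begin or end, and triangles mark the first base of a QKI word (red) or an RBFOX word (green). The QKI words stand upstream of each exon, at 640 nt from EDB, 316 nt from EDA and 221 and 904 nt from the variable exon, and 6 RBFOX words stand in the intron after EDB.

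The deposited values are RPKM, reads scaled by gene length and library total, with 1 value per gene and library, so these tables measure the mRNA of *FN1* as a whole and not its exons. Whole reads and library totals were recovered from the spacing of the values, and the totals were 20052951 and 34706058 reads in sh-Ctrl 1 and 2 and 20571555 and 34862008 reads in sh-QKI 1 and 2. *QKI*, the targeted gene, was at 8.94 and 14.6 RPKM in sh-Ctrl 1 and 2 and at 2.52 and 3.85 RPKM in sh-QKI 1 and 2, that is 0.282 and 0.264 times the control of the same number. Over the 11829 genes whose mean was 0.5 RPKM or more, the difference between replicate 2 and replicate 1 on the log2(RPKM + 0.5) scale had an SD of 0.81 in sh-Ctrl and 0.66 in sh-QKI, against 0.20 and 0.21 for sh-QKI minus sh-Ctrl within numbers 1 and 2. The replicate number therefore acted as a batch, and each difference is given within both numbers. The study sequenced at 2 read lengths, and no source used here ties a number to a length. Of the markers of epithelium, *KRT7* (20.7 to 264 RPKM), *KRT8* (91.5 to 248 RPKM) and *KRT18* (103 to 189 RPKM) were high. *CLDN1* was at 10.2 to 26.2 RPKM and *DSP* at 8.42 to 18.7 RPKM. *EPCAM* was at 0.619 to 0.811 RPKM. *KRT19*, *CLDN4*, *CDH1* and *TP63* were at most at 0.875, 0.328, 0.181 and 0.00463 RPKM, and *KRT5* was not listed.

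Of the 10 genes, 7 reached a mean of 0.5 RPKM and were tested, and 3 did not. *ITGA4* was found with 3, 8, 0 and 5 reads in sh-Ctrl 1 and 2 and sh-QKI 1 and 2, and the 0 in sh-QKI 1 allows up to 0.0114 RPKM, the value of 3 reads. *ITGB6* had 1, 1, 2 and 7 reads in the same order. *ITGB3* was listed in none of the 4 tables, by symbol or by gene ID, and was given 0. No fold was taken for these 3 genes. The mRNAs of alpha-4 and beta-6, partners in receptors for the variable region and the RGD site, were thus at or near 0 in both groups. No listed value was 0, so whether *ITGB3* was unexpressed or not among the genes counted cannot be told. Among the integrin genes taken here, those with more than a few reads were *ITGA3*, *ITGA5*, *ITGAV*, *ITGB1* and *ITGB5*.

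*FN1* and *SDC4* were higher in sh-QKI than in sh-Ctrl of the same number, by about the same fold in both numbers. The 5 integrin chains differed by less, and 4 of them in opposite directions in the 2 numbers. Without a term for the replicate number, limma called 0 of the 7 genes (adjusted p 1.00 for each), as it did 0% of the genes tested. At an unadjusted p under 0.05 this fit held 4 genes higher and 9 lower, with 0 of the 7 among them. None of the 7 genes was over 2-fold apart in mean RPKM, against 0.569% of 11955 genes. None had libraries of the groups that did not overlap, against 8.6% of the tested genes. The median log2 fold change was 0.02 over the 7 genes and 0.03 over all genes tested.

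*FN1*, the ligand, was at 242 and 169 RPKM in sh-Ctrl 1 and 2 and at 299 and 210 RPKM in sh-QKI 1 and 2. The libraries numbered 1 were the higher pair in both groups, so the groups overlapped when pooled, while within each number the knockdown library was the higher one. The ratio of sh-QKI to sh-Ctrl was 1.24 in both numbers, or 0.30 and 0.31 on the log2(RPKM + 0.5) scale. Group means were 206 ± 51.4 RPKM in sh-Ctrl and 254 ± 62.9 RPKM in sh-QKI (SD, n = 2 libraries each). Each of these values rests on at least 150383 recovered reads. If each was an independent read, counting error was 0.258% or less and small beside the differences. Reads over genes sum to 1.35 to 1.53 times the library totals, so reads may have been counted more than once and this error may be too low. *FN1* ranked 81st and 75th of the listed genes by RPKM in sh-Ctrl 1 and 2 and 54th and 55th in sh-QKI 1 and 2. With the replicate number fitted as a block, the log2 fold change was 0.31 with an SE of 0.13, and its limma adjusted p of 0.442 was not past the threshold, against 0.854% of genes called by that fit. Both differences were at least as large as the smaller one of *FN1* in 134 of the 11829 genes, 1.13%, and in 4 of the 784 genes at a mean of 50 RPKM or more. Both counts include *FN1* itself and *SDC4*, and the limit of 50 RPKM was chosen after the values were seen. EDB and EDA together are 543 nt, 6.24% of the longest annotated coding transcript (8708 nt), and a transcript with both is longer than the same transcript without them by 0.09 on the log2 scale.

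*SDC4*, the co-receptor, was at 95.5 and 173 RPKM in sh-Ctrl 1 and 2 and at 129 and 222 RPKM in sh-QKI 1 and 2. Here the libraries numbered 2 were the higher pair, opposite to *FN1*, and again the knockdown library was above the control of its number while the groups overlapped. The ratio of sh-QKI to sh-Ctrl was 1.35 in number 1 and 1.29 in number 2. In the fit with the block the log2 fold change was 0.40 with an SE of 0.12 and a limma adjusted p of 0.0909, short of the threshold. Voom of limma on the recovered reads with the block gave 0.40 with an SE of 0.11 and an adjusted p of 0.0450, which is past it, and that fit called 1.16% of genes; *FN1* had an adjusted p of 0.174 there. Both differences were at least as large as the smaller one of *SDC4* in 86 genes, 0.727% of those tested, and in 2 of the 784 genes at a mean of 50 RPKM or more. Both counts include *SDC4* itself. The gene lies at chr20:43953928-43977064 on the minus strand.

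**Figure D2:**
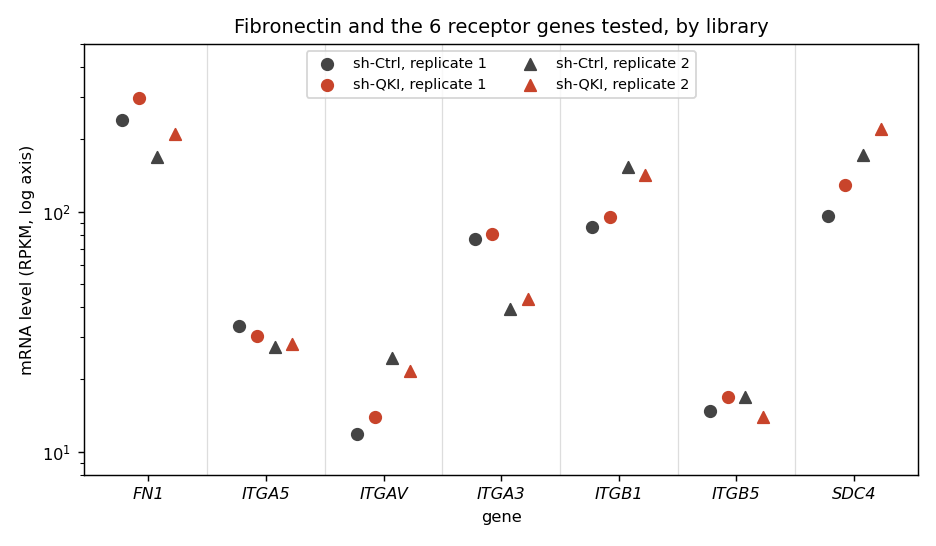
RPKM (y axis, log scale) of the 7 genes tested (x axis) in each library; circles are replicate 1, triangles are replicate 2, grey is sh-Ctrl and red is sh-QKI. *FN1* stands at 169 to 299 RPKM and *SDC4* at 95.5 to 222 RPKM, with the red symbol above the grey one of the same shape in both, while for *ITGAV*, *ITGB1* and *ITGB5* the order of red and grey turns between circles and triangles.

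Of the alpha chains, *ITGA3* was at 77.0 and 39.5 RPKM in sh-Ctrl 1 and 2 and at 80.5 and 43.4 RPKM in sh-QKI 1 and 2. The libraries numbered 1 were about as far above those numbered 2 in both groups, and sh-QKI was 1.04 and 1.10 times sh-Ctrl within numbers 1 and 2. *ITGA5*, the partner of beta-1 in the classical receptor, was the steadiest alpha chain, at 33.3 and 27.3 RPKM in sh-Ctrl 1 and 2 and at 30.3 and 28.0 RPKM in sh-QKI 1 and 2. The sh-QKI values lie inside the range of the control libraries, and the log2 difference was -0.14 in number 1 and 0.04 in number 2. *ITGAV*, the chain of the vitronectin-type receptors, was at 11.9 and 24.6 RPKM in sh-Ctrl 1 and 2 and at 14.0 and 21.7 RPKM in sh-QKI 1 and 2. It was higher in sh-QKI by 0.22 on the log2 scale in number 1 and lower in number 2, at -0.18, and again both knockdown values lie inside the control range. With the block, the log2 fold changes of the 3 alpha chains were 0.10, -0.05 and 0.02 for *ITGA3*, *ITGA5* and *ITGAV*, each with an SE of 0.12, and none was called (limma adjusted p of 0.999 for each).

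Of the beta chains, *ITGB1*, the common partner of alpha-3, alpha-4 and alpha-5, was at 86.6 and 153 RPKM in sh-Ctrl 1 and 2 and at 95.3 and 142 RPKM in sh-QKI 1 and 2. *ITGB5*, which pairs with alpha-v, was at 14.8 and 16.9 RPKM in sh-Ctrl 1 and 2 and at 16.9 and 13.9 RPKM in sh-QKI 1 and 2. Both were higher in sh-QKI in number 1 and lower in number 2. The log2 differences were 0.14 and -0.11 for *ITGB1*, and 0.18 and -0.28 for *ITGB5*. With the block the log2 fold changes were 0.01 and -0.05, each with an SE of 0.12 and a limma adjusted p of 0.999. Within the replicate numbers, 3 of the 7 genes (*FN1*, *SDC4* and *ITGA3*) were higher in sh-QKI in both, where 31.7% of all tested genes were, and 0 were lower in both, where 16.6% of all tested genes were.

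**Figure D3:**
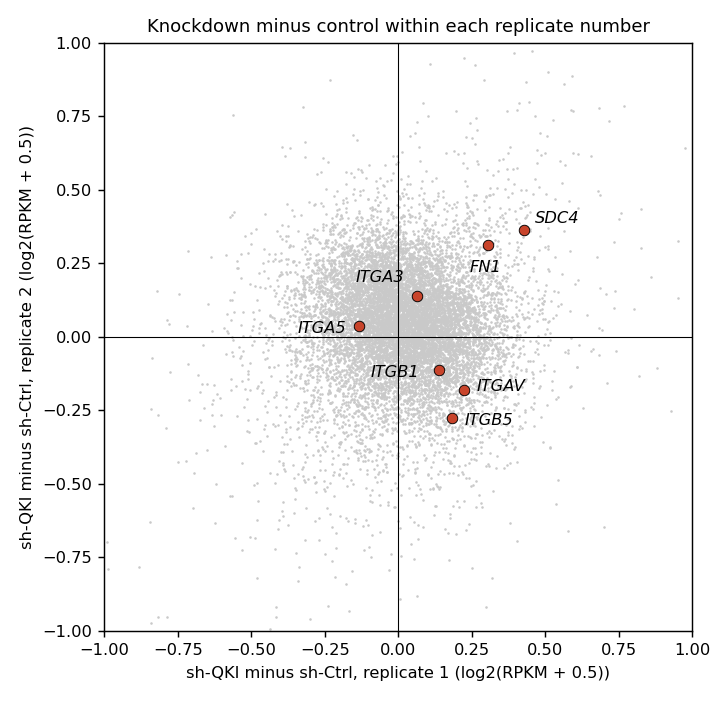
Difference between sh-QKI and sh-Ctrl in log2(RPKM + 0.5) within replicate 1 (x axis) and replicate 2 (y axis); red points are the 7 genes and grey points the other tested genes, of which 31 with a difference of 1 or more, *QKI* among them, lie outside the axes. *FN1* (0.30, 0.31) and *SDC4* (0.43, 0.36) lie in the upper right, and *ITGAV*, *ITGB1* and *ITGB5* at the lower right.

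The difference between replicate numbers in these genes moved with the GC content of their transcripts, taken from the longest annotated coding transcript. *ITGB1* (38.2% GC) and *ITGAV* (38.3% GC) were higher in number 2 by 0.82 and 1.02 on the log2 scale in sh-Ctrl. *ITGA3* (60.9% GC) was lower there by 0.96. Over the 11418 tested genes with a GC value, 96.5% of those tested, the median of replicate 2 minus replicate 1 in sh-Ctrl went from 0.80 at 35 to 40% GC to -0.86 at 60 to 65% GC. The knockdown differences also moved with GC, and in opposite ways in the 2 numbers. The median of sh-QKI minus sh-Ctrl was 0.11 at 35 to 40% GC and -0.09 at 60 to 65% GC in number 1, but -0.09 and 0.19 in number 2. *FN1* (49.9% GC) and *SDC4* (48.8% GC) lie where these medians were close to 0, at 0.05 and 0.03 for 45 to 50% GC in numbers 1 and 2. *FN1* was nevertheless lower in number 2 by 0.51 in both groups, and *SDC4* was higher by 0.85 and 0.78 in sh-Ctrl and sh-QKI.

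Centring each library on the median of genes with like GC content, in 20 bins, was added after these values were seen. The difference between the control libraries then came to -0.01 for *ITGB1*, 0.19 for *ITGAV* and -0.17 for *ITGA3*, all smaller than before. It turned from -0.28 to 0.22 for *ITGA5*, grew from 0.19 to 0.55 for *ITGB5*, and was -0.49 for *FN1* and 0.87 for *SDC4*. The difference of sh-QKI from sh-Ctrl was then alike in both numbers for *ITGA5*, at -0.10 and -0.09, while *ITGB5* differed in opposite directions, by 0.18 and -0.35, and so did *ITGA3*, by 0.19 and -0.02. With the replicate block on these centred values, limma called *SDC4* (log2 fold change 0.37, SE 0.08, adjusted p 3.77e-04) and *FN1* (0.28, SE 0.08, adjusted p 0.0256), 2 of the 7 genes against 3.95% of 11418 genes. The 5 integrin chains were not called, with log2 fold changes from -0.09 to 0.09 and adjusted p from 0.690 to 0.988. The call for *FN1* was made by this fit alone and the call for *SDC4* by this fit and voom with the block. Either block fit has 1 residual degree of freedom per gene, and its spread comes almost wholly from genes at like levels. The SE here was 0.08 for both *FN1* and *ITGB5*, although the 2 numbers were alike for *FN1* and opposite for *ITGB5*. These SEs and p-values therefore hardly measure the spread of the gene itself.

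**Figure D4:**
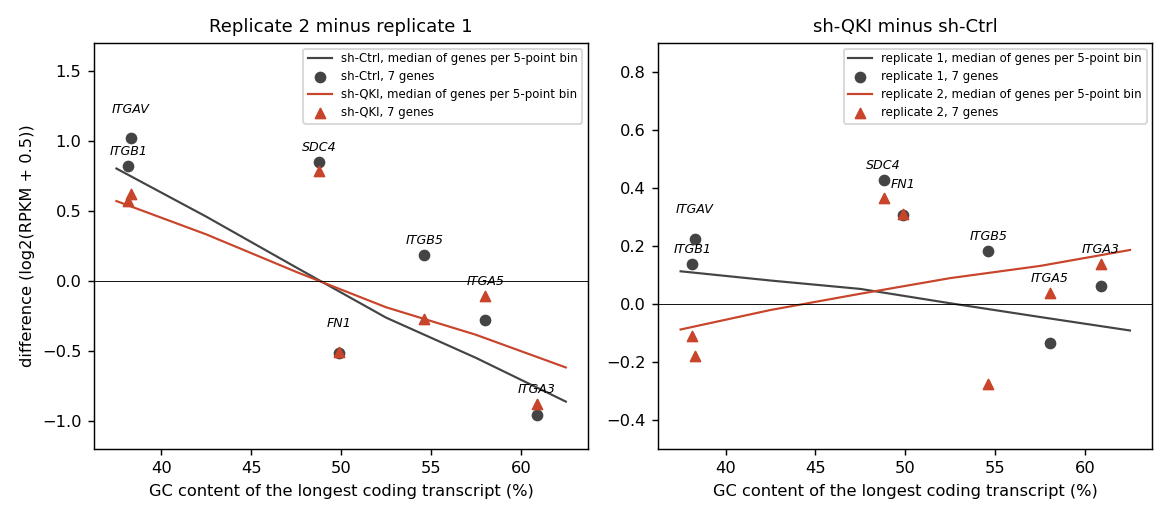
Log2(RPKM + 0.5) differences (y axis) against the GC content of the longest coding transcript (x axis, %), with points for the 7 genes and lines for the median of all tested genes in bins of 5 points; left, replicate 2 minus replicate 1 in sh-Ctrl (grey circles) and sh-QKI (red triangles), and right, sh-QKI minus sh-Ctrl in replicate 1 (grey circles) and replicate 2 (red triangles). On the left the lines run from 0.80 and 0.57 at 35 to 40% GC to -0.86 and -0.62 at 60 to 65% GC with *ITGB1* and *ITGA3* in sh-Ctrl near the grey line, *SDC4* and *ITGB5* in sh-Ctrl well above it and *FN1* below; on the right both points of *FN1* and *SDC4* lie above both lines.

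The integrin chains were then set against each other within each library. RPKM is per length, but the gene lengths behind it were 1.03 to 3.45 times the union of annotated exons for the listed members, so an order of levels between genes depends on lengths that the sources used here do not explain. By mean RPKM in sh-Ctrl, *FN1* (206) was followed by *SDC4* (134), *ITGB1* (120), *ITGA3* (58.3), *ITGA5* (30.3), *ITGAV* (18.2) and *ITGB5* (15.9). The ranges of the 4 libraries overlapped between *FN1* and *SDC4*, *SDC4* and *ITGB1*, and *ITGAV* and *ITGB5*. Within libraries, *SDC4* was nevertheless above *ITGB1* in all 4, whereas the order of *FN1* and *SDC4* and that of *ITGAV* and *ITGB5* turned between the numbers. *ITGB1* lay above *ITGA3*, *ITGA3* above *ITGA5* and *ITGA5* above *ITGAV* in all 4 libraries.

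The 8 integrin genes summed to 224 and 261 RPKM in sh-Ctrl 1 and 2 and to 237 and 249 RPKM in sh-QKI 1 and 2, with both knockdown sums inside the control range. The difference of the mean log2 sums was 0.01, and within numbers 1 and 2 the log2 differences were 0.08 and -0.07. The exact two-sided permutation p was 1.00. This test took no account of the replicate number. The smallest p that its 6 arrangements of the libraries allow is 0.333, so it could not have found a difference. The sum of the alpha chains was 122 and 91.4 RPKM in sh-Ctrl 1 and 2 and 125 and 93.2 RPKM in sh-QKI 1 and 2, so that sh-QKI was 1.02 times sh-Ctrl in both numbers. *ITGA3* made up 63.0 and 43.2% of it in sh-Ctrl and 64.5 and 46.6% in sh-QKI, and *ITGA5* made up 27.3 and 29.9% in sh-Ctrl and 24.3 and 30.1% in sh-QKI. *ITGAV* held 9.72 and 26.9% of the alpha sum in sh-Ctrl and 11.2 and 23.3% in sh-QKI, and the split by number was the larger one. *ITGB1* made up 85.4 and 90.0% of the beta sum in sh-Ctrl and 84.9 and 91.0% in sh-QKI, and *ITGB5* nearly all of the rest. The beta shares take *ITGB3*, which was not listed, as 0. All shares depend on the gene lengths behind the RPKM. These were 1.03 times the union of annotated exons for *ITGB1*, 1.75 times for *ITGB5* and 3.26 times for *ITGA3*.

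**Figure D5:**
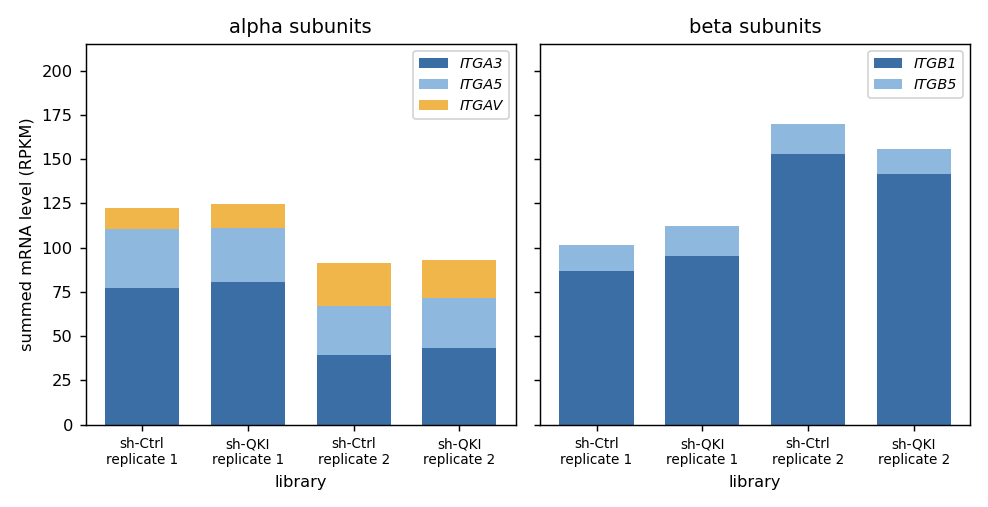
Stacked RPKM (y axis, from 0) of the integrin alpha chains (left) and beta chains (right) in each library (x axis). *ITGA4* and *ITGB6* are too low to draw, and *ITGB3* was not listed. Libraries of 1 number resemble each other more than libraries of 1 group, with alpha sums of 122 and 125 RPKM in number 1 and 91.4 and 93.2 RPKM in number 2.

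A ratio of 2 genes within a library does not depend on the scaling of that library, and 6 such ratios were computed. *FN1* over *ITGA5*, ligand over the alpha chain of its classical receptor, was 7.26 and 6.20 in sh-Ctrl 1 and 2 and 9.86 and 7.49 in sh-QKI 1 and 2. *SDC4* over *ITGB1* was 1.10 and 1.13 in sh-Ctrl and 1.35 and 1.57 in sh-QKI. The groups did not overlap in either of these ratios, as was the case for 10.4% of the tested genes in their ratio to *ITGA5* and for 6.65% in their ratio to *ITGB1*. Such a ratio still depends on shifts between libraries that go with GC content. After GC centring the control libraries differed by 0.87 for *SDC4* and -0.01 for *ITGB1*, and by -0.49 for *FN1* and 0.22 for *ITGA5*. On the centred values the groups overlapped in both ratios. *FN1* over *ITGB1* was 2.80 and 1.11 in sh-Ctrl and 3.14 and 1.48 in sh-QKI, higher in the knockdown library within both numbers but overlapping when pooled, and so was *FN1* over *ITGAV*, at 20.4 and 6.88 in sh-Ctrl and 21.4 and 9.69 in sh-QKI. *FN1* over *SDC4* was 2.53 and 0.981 in sh-Ctrl and 2.32 and 0.946 in sh-QKI, lower by 0.13 and 0.05 on the log2 scale. *ITGA5* over *ITGAV* was lower in sh-QKI in number 1 (2.81 against 2.17) and higher in number 2 (1.11 against 1.29).

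The genes around fibronectin and its receptors were described by lists, with no gene of any list called by limma with or without the block, or by voom. Of the other integrin subunits, 8 of 18 were tested, with a median log2 fold change of -0.10. Within both numbers 1 was higher and 2 were lower in sh-QKI, where 31.7% and 16.6% of all tested genes were. The most abundant were *ITGA6* (10.1 and 16.0 RPKM in sh-Ctrl 1 and 2, 9.84 and 13.2 RPKM in sh-QKI), the laminin receptor chain, *ITGA7* (14.2 and 13.1 RPKM in sh-Ctrl, 11.5 and 13.1 RPKM in sh-QKI) and *ITGB4* (4.79 and 8.57 RPKM in sh-Ctrl, 4.92 and 8.75 RPKM in sh-QKI). Each lay below *ITGA5* in every library. *ITGA9*, whose product also binds the EDA segment, was at most at 0.0557 RPKM.

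*SDC4* made up 60.7 and 79.8% of the summed RPKM of the 4 syndecans in sh-Ctrl and 66.8 and 81.0% in sh-QKI. *SDC1*, another syndecan, was at 42.0 and 24.0 RPKM in sh-Ctrl 1 and 2 and at 46.9 and 30.4 RPKM in sh-QKI 1 and 2, higher in the knockdown library in both numbers (0.16 and 0.34 on the log2 scale) and not called with the block (limma adjusted p of 0.670). *SDC3* and the glypican *GPC1* differed in opposite directions in the 2 numbers. Of the 7 genes in this list, 4 were tested, with a median log2 fold change of 0.06 beside 0.03 over all genes tested.

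Adaptors and focal adhesion proteins, which link integrin tails to actin, numbered 33, of which 31 were tested. Within both numbers 3 were higher and 10 lower in sh-QKI, where 31.7% and 16.6% of all tested genes were. The median log2 fold change was -0.05. The most abundant, the actin-binding *FLNA*, *ACTN1* and *ACTN4*, differed in opposite directions in the 2 numbers and stood far higher in number 1, with *FLNA* at 645 and 556 RPKM there against 164 and 166 RPKM in number 2. After GC centring with the block 2 of the 31 were lower, where this fit called 2.46% of its genes lower, *CAV1* (caveolin-1), with a log2 fold change of -0.37 and a limma adjusted p of 1.41e-04, and *TGFB1I1* (Hic-5), with -0.26 and 0.0231; this fit was chosen after the values were seen. Before centring, *TGFB1I1* differed by -0.42 in number 1 and 0.05 in number 2 and had an adjusted p of 0.999 with the block in limma. *CAV1* was at 49.4 and 59.0 RPKM in sh-Ctrl 1 and 2 and at 35.2 and 48.5 RPKM in sh-QKI 1 and 2. Its groups did not overlap, as in 8.6% of the tested genes. Before centring it differed by -0.48 and -0.28 in numbers 1 and 2. It was then not called with the block by limma (adjusted p 0.0824) or by voom (adjusted p 0.0947).

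Among 26 matrix partners of fibronectin and other integrin ligands, 19 were tested, and the median log2 fold change was 0.00. Within both numbers 4 were higher and 5 lower in sh-QKI, where 31.7% and 16.6% of all tested genes were. The most abundant were *CYR61* (366 and 218 RPKM in sh-Ctrl, 315 and 252 RPKM in sh-QKI), *TGFBI* (250 and 147 RPKM in sh-Ctrl, 206 and 138 RPKM in sh-QKI) and *THBS1* (191 and 76.5 RPKM in sh-Ctrl, 178 and 74.8 RPKM in sh-QKI). None of the 3 was called with the block. After GC centring with the block, 2 of the 19, *TGFBI* and *CTGF*, were lower, by log2 fold changes of -0.26 and -0.25 with limma adjusted p of 0.0326 and 0.0332, and no gene of this list was higher. That fit, chosen after the values were seen, called 2.46% of its genes lower. Before centring, the differences in numbers 1 and 2 were -0.28 and -0.10 for *TGFBI* but -0.44 and 0.07 for *CTGF*, and both had an adjusted p of 0.999 with the block in limma.

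The 9 splicing factors known to act on EDA or EDB were all tested, with a median log2 fold change of 0.02. Within both numbers 4 were higher and 0 lower in sh-QKI, where 31.7% and 16.6% of all tested genes were. *PTBP1* was at 142 and 72.4 RPKM in sh-Ctrl 1 and 2 and at 142 and 81.8 RPKM in sh-QKI 1 and 2. *SRSF1* was at 68.0 and 77.9 RPKM in sh-Ctrl and 71.1 and 79.4 RPKM in sh-QKI, and *SRSF3* at 68.0 and 73.7 RPKM in sh-Ctrl and 66.7 and 77.6 RPKM in sh-QKI. None of the 9 was called by any of these fits, GC centring included.

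Markers of other cell types are given because fewer cells of a type and less mRNA per cell cannot be told apart in such libraries. Of 9 fibroblast markers, which summed to between 102 and 144 RPKM in sh-Ctrl and between 125 and 134 RPKM in sh-QKI, 3 were tested: *THY1* (72.9 to 85.3 RPKM), *PDGFRB* (7.11 to 11.8 RPKM) and *COL1A1*. *COL1A1* was at 51.5 and 18.6 RPKM in sh-Ctrl 1 and 2 and at 54.1 and 29.5 RPKM in sh-QKI 1 and 2, so that it was higher with *FN1* mainly in number 2, and it was called by GC centring with the block alone (log2 fold change 0.34, limma adjusted p 4.97e-04). That fit called 3.95% of its genes in either direction. The other markers of this list were low: *COL1A2*, *COL3A1*, *LUM* and *PDGFRA* were at most at 0.0601 RPKM and *FAP* at most at 0.215 RPKM. *DCN* was not listed. Epithelial markers summed to between 250.0 and 711 RPKM in sh-Ctrl and between 291 and 681 RPKM in sh-QKI. Of the 6 tested, 4 were higher and 0 lower in sh-QKI within both numbers, where 31.7% and 16.6% of all tested genes were. Of the leukocyte markers *CD14* and *CD68* alone were tested, and *CD68*, which many cells hold in lysosomes, was at -0.23 and -0.39 in numbers 1 and 2 and was called lower after GC centring (log2 fold change -0.37, limma adjusted p 5.48e-04). The same fit called 2.46% of its genes lower. *PTPRC* was at most at 0.00509 RPKM and *CD79A* at 0.135 RPKM. No endothelial, ciliated or secretory marker reached a mean of 0.5 RPKM, and their sums were at most 0.295 RPKM for the endothelial list and 0.254 RPKM for the other. The highest of them were *CDH5* (at most 0.230 RPKM), *VWF* (0.0587 RPKM) and *CLDN5* (0.0473 RPKM), and *DNAH5* (0.151 RPKM), *SCGB1A1* (0.0857 RPKM) and *FOXJ1* (0.0554 RPKM). The part of these markers in the difference of *FN1* and *SDC4* was not tested.

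ACTAAC or ACTAAT also occurred in the longest coding transcripts of 7 of the 10 genes, 3 times in *FN1* and once each in *ITGA4*, *ITGA5*, *ITGAV*, *ITGB1*, *ITGB6* and *SDC4*, and not in those of *ITGA3*, *ITGB3* or *ITGB5*. Such words were found in 45.0% of 19833 genes, a share not matched for transcript length. The longest coding transcripts of the 10 genes ran from 2613 nt (*SDC4*) to 8708 nt (*FN1*), and a longer transcript has more places for a word. Whether the 10 genes hold more words than genes of like length was not tested. The words of the 2 genes that were higher in both numbers by over 0.30 are shown in 26-nt stretches, with the word in capitals and its first position in the transcript.
FN1, position 3267: ggatgctcccACTAACctccagtttg
FN1, position 7533: gagaacaaacACTAATgttaattgcc
FN1, position 8482: tcatctcttcACTAATggagatagct
SDC4, position 2105: cctcagttgcACTAACcacgtttcta

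The 3 tested genes whose profile over the 4 libraries came closest to that of *FN1*, by Euclidean distance between log2(RPKM + 0.5) values centred on their mean, were *LPHN1* (distance 0.04), *S1PR5* (0.05) and *MDP1* (0.06). *LPHN1*, for one, was at 4.24 and 2.75 RPKM in sh-Ctrl 1 and 2 and at 5.16 and 3.47 RPKM in sh-QKI 1 and 2. Among the 11829 genes tested, *ITGA3* came 3007th in this order with a distance of 0.46, *ITGA5* 3302nd and *ITGB5* 4941st. *ITGB1*, *SDC4* and *ITGAV*, whose replicate numbers differed the other way, came 9764th, 10169th and 10357th, with distances of 1.25, 1.33 and 1.38. With 4 libraries and 2 numbers, likeness of profile mostly means a like difference between the numbers.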

How the data were processed

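Single-end RNA-Seq of BEAS2B total RNA (TruSeq kit, Illumina GAII, 2 read lengths) was used, with 2 libraries per group. The authors used Bowtie (release not given in the sources used here) to align reads to hg19, the build the submitters' processing notes name, and to Ensembl exon-exon junctions, allowing up to 3 mismatches and leaving out ambiguous reads. They deposited RPKM, 1 value per gene and library. A gene without a value was given 0. Whole reads were recovered for 100% of the values (relative tolerance 1e-11), and reads over genes sum to 1.35 to 1.53 times the library totals. Intervals of counting error leave out other sources of spread.

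Differences were fitted on log2(RPKM + 0.5), a scale that understates changes of low genes, by limma 3.58.1 (R 4.3.3; mean-variance trend, two-sided test) where the mean RPKM reached 0.5. The threshold was 0.05 on the p-value adjusted by Benjamini-Hochberg over all genes tested. The main fit had no block. The replicate block, other pseudocounts and filters, median centring, voom and leaving out each library were alternatives, and GC centring was chosen later, with the values known. The fits were also run on simulated data, and no statement here rests on that run. Across genes, the difference between the numbers in sh-Ctrl and in sh-QKI correlated with r = 0.953, but the labels tie a number to no shared culture or day. Sequences and transcripts came from GRCh37 and from GENCODE lifted to it by its makers. Scripts ran in Python 3.11.15 (numpy 2.4.6, pandas 2.3.3; figures by matplotlib 3.10.9).

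The 10 genes, the lists and the rule for naming genes were chosen with earlier results of these data known. The rule named all 10 genes in every library, *QKI*, the 3 genes of each list with the highest mean RPKM, genes of a list called with or without the block, and the 3 genes with the profile nearest to *FN1*. *CTGF*, *TGFB1I1*, *CAV1*, *ITGA9*, *CLDN1*, *DSP*, *EPCAM*, *KRT19* and the marker genes at or near 0 were named after their values were seen.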

Additional observations from a re-analysis of the deposited data

How the results depend on the processing

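The replicate block made 101 genes pass the threshold in place of 0 (58 higher, 43 lower), the block with median centring 114 (48 and 66), voom with the block 137 (69 and 68) and GC centring with the block 451 (170 and 281). Of the 7 genes, 0 were called under the block or the block with median centring, 1 (*SDC4*) with voom and the block and 2 (*SDC4*, *FN1*) with GC centring and the block; the cause was not tested. *SDC4* lay between 0.36 and 0.40 and *FN1* between 0.27 and 0.31 (log2 fold change) over these and the other pseudocounts, filters and centrings. Median centring, with or without the block, turned *ITGAV* to -0.012 and *ITGB1* to -0.021. No over 2-fold difference appeared under either other limit. Leaving out 1 library, which leaves that group with 1 sample and mixes the numbers, gave 0 called of the 7 and 0 to 3 genes in all. It gave 0.05 to 0.56 for *FN1*, -0.029 to 0.82 for *SDC4* (reversed without sh-Ctrl replicate 1), -0.38 to 0.58 for *ITGA3*, -0.19 to 0.093 for *ITGA5*, -0.49 to 0.53 for *ITGAV*, -0.40 to 0.42 for *ITGB1*, -0.18 to 0.0895 for *ITGB5* and -0.11 to 0.12 for the summed integrins. List medians lay between -0.41 and 0.43 for the other integrin subunits and between -0.45 and 0.31 for the adaptors. Every value of the 7 genes rests on at least 2500 reads.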
